A study of Mus musculus with 8 samples.

Results

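The collagen genes of the mouse small intestine at embryonic stage E18.5 were measured in control samples and in samples labelled with an endocrine-cell deletion of Rfx6, a transcription factor gene. The genes were taken by name: every non-control probe of the array whose gene name is Col, a number, a and a number. This gave 41 genes of 36142 named on the array, with 63 probes. For each gene the probe with the highest mean log2 processed intensity over all 8 arrays was used. The mutant group held 4 samples labelled Rfx6 fl/fl Ngn3-cre, with both Rfx6 alleles floxed (flanked by sites that the Cre recombinase cuts) and Cre driven by Ngn3, a gene of endocrine progenitors. The control group held 3 samples labelled Rfx6 fl/+ (replicates 1, 3 and 4) and 1 labelled Rfx6 fl/fl (replicate 2), with no Cre named, so every sample carried at least 1 floxed allele. Cre and the loss of Rfx6 cannot be told apart in this contrast. Whole small intestine was used, while most collagen is made by connective tissue cells, in which Ngn3 is not known to act. In bulk tissue, fewer cells of a type and less RNA per cell cannot be told apart.

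Collagens are trimers of chains whose helical parts have glycine at 1 of every 3 residues, since no larger side chain fits in the centre of the triple helix. In the gut wall, fibroblasts and smooth muscle make the fibrils of types I, III and V, and type VI forms beaded filaments around cells. Type IV forms the sheet of the basement membrane under the epithelium and around muscle and vessels. Types II, IX, X and XI are best known from cartilage.

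The helix repeat is visible in the array's own sequences, and 2 of the 63 collagen probes carry it without a break, as a codon starting with GG (glycine) every 9 bases. Among all 55681 probes 7 do, and of the 5 that do not name a collagen 4 are runs of GGA. The probe of Col15a1 used here lies at chr4:47283786-47283845 (mm9), and that of Col25a1, a second probe of the gene, at chr3:130270497-130270556 (mm9). Both are given 5′ to 3′ as the array files list them, with the glycine codons in capitals.
Col15a1: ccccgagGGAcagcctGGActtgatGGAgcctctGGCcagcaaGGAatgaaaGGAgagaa
Col25a1: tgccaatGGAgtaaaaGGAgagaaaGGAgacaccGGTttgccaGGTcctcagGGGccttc

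Promoter sequences from RefSeq (build GRCm38.p6) matched 33 of the 41 genes. Those of Col1a2 and Col3a1 are shown because types I and III form fibrils together and their levels followed each other across arrays. Each run is the 250 bases before the start site, in the direction of the gene, at chr6:4505368-4505617 (plus strand) and chr1:45311288-45311537 (plus strand). Capitals mark matches, on either strand, to GGGCGG (the GC box), CCAAT or TATAAA, and these letters do not overlap one another.
Col1a2: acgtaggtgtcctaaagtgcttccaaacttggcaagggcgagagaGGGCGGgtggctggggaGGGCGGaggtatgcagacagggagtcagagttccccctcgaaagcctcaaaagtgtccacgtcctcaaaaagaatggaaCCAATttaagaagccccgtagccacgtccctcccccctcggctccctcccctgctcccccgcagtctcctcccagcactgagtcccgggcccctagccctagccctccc
Col3a1: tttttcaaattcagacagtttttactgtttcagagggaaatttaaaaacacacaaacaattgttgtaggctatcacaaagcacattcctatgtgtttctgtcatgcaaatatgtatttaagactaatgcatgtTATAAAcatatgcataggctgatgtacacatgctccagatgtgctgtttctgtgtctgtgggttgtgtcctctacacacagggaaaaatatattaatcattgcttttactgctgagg
The Col1a2 window held 2 GC boxes and 1 CCAAT, with 62.0% G and C, while the Col3a1 window held 1 TATAAA and neither of the others, with 35.2% G and C. Across windows of the same length, GGGCGG was found in 58.3% of 36 collagen promoters and 32.7% of all 32851. CCAAT was found in 36.1% and 33.8%, and TATAAA in 13.9% and 12.4%. Col4a1 and Col4a2, which encode the chains of the widespread type IV collagen, start 21 bases apart on opposite strands. A match to these letters is a description of the window, not a binding site.

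All 8 arrays lay on 1 slide, in 2 rows of 4 with 2 controls and 2 mutants each, and between 59.7% and 69.9% of probes were well above background. Levels below are log2 intensity relative to the 75th percentile of the same array, and each difference between groups compares a probe with itself. Sums over markers, pairs of chains and the level threshold used below set different probes side by side. Mutant replicate 1 stood apart, correlating at 0.978 with the rest on average, where each of the others averaged 0.990 to 0.991. Rfx6 itself was at -3.32, -3.20, -3.48 and -2.93 in control replicates 1 to 4 and -5.52, -3.37, -3.02 and -3.02 in mutant replicates 1 to 4, differing by -0.50 (limma SE 0.52, adjusted p = 0.824). Without mutant replicate 1 the difference was 0.099, and within the second slide row 0.19, so the lower mutant mean came from mutant replicate 1 alone. Where the probe lies relative to the floxed part is not stated in the labels. Of 8 endocrine markers 6 were called lower in the mutants (limma adjusted p under 0.05), against 14 of all 25337 genes tested. The others, Chga and Chgb, differed by -0.27 and 0.03 and were not called. Of the 6, Gip was well above background on 4 control arrays and 1 mutant array, so it was tested only through the controls. Markers of the gut wall were all well above background on all 8 arrays (9 of 9 for intestinal epithelium, 8 of 8 for fibroblasts and 7 of 7 for smooth muscle). Of 7 cartilage markers 4 were well above background on all 8 arrays and 3 on none.

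None of the collagen genes passed the test between mutants and controls. Of 41, 34 were tested, 33 of them well above background on all 8 arrays, and 0 of 34 reached a limma adjusted p under 0.05. The background was 15 of 25337 genes, or 0.0592%. At an unadjusted p under 0.05 limma gave 0 of 34 collagens against 5.32% of all genes. The lowest adjusted p of a tested collagen was 0.822. The mean was higher in the mutants for 24 of 34 collagens (70.6%), against 57.1% of all genes, and the median difference was 0.08 against 0.03 over all genes. Within the first slide row alone the collagen median was 0.08, against 0.07 over all genes. Within the second it was 0.03, against 0.0037. The collagen median was -0.0099 without control replicate 3, 0.011 without mutant replicate 1 and -0.00099 with arrays weighted by their quality. Its sign was therefore not stable. Over all genes these settings gave 0.03, 0.0017 and 0.0036. Mutant replicate 1 had a weight of 0.12 and the other arrays 0.84 to 2.60, so weighting came close to leaving it out. The groups did not overlap for 1 of 34 collagens, Col4a5, against 4.66% of all genes.

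The size of the differences was bounded for most genes. The 95% interval lay within 1.5-fold in either direction for 23 of 34 genes and within 2-fold for 32, and the remaining pair were Col9a1 and Col19a1. The median absolute difference was 0.11 for collagens and 0.12 for all genes. The median SD over the 8 arrays was 0.22 for collagens and 0.20 for all genes.

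**Figure D1:**
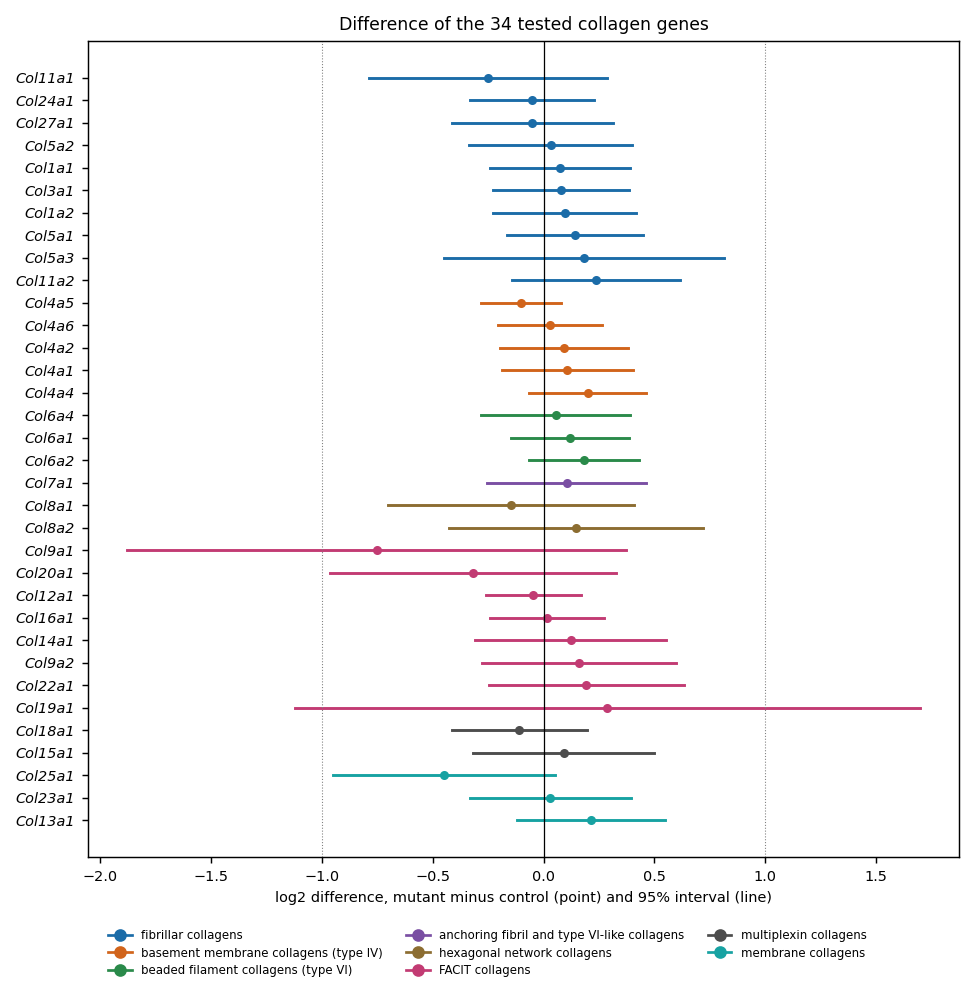
The log2 difference between mutants and controls (x axis, mutant minus control) for each of the 34 tested collagen genes (y axis), coloured by class, with the 95% interval from limma (4 arrays per group) as a line and dotted lines at -1 and 1. All 34 intervals cross 0, and those of Col9a1 and Col19a1 are the only ones that pass a dotted line.

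Of the 11 fibrillar collagens, 10 were tested, and the median difference was 0.08, with 7 higher in mean. Col1a1, a chain of type I collagen, the main tensile fibril, was at 5.39, 5.47, 5.09 and 5.56 in control replicates 1 to 4 and 5.69, 5.52, 5.24 and 5.36 in the mutants (chr11:94813115-94813174, mm9). The difference was 0.08 (limma SE 0.14, adjusted p = 0.894). Col1a2, its partner chain, was at 6.50, 6.44, 6.03 and 6.34 in controls and 6.63, 6.56, 6.23 and 6.27 in mutants (chr6:4490619-4490678), a difference of 0.10 (limma SE 0.14, adjusted p = 0.864). In both, control replicate 3 was lowest and mutant replicate 1 highest, and the groups overlapped. Col3a1, the type III chain of extensible tissues, was at 5.38, 5.57, 5.12 and 5.56 in controls and 5.70, 5.53, 5.28 and 5.44 in mutants (chr1:45405589-45405648), a difference of 0.08 (limma SE 0.13, adjusted p = 0.884). It gave the same lowest and highest arrays.

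Type V collagen sits inside type I fibrils and limits their width. Its chain Col5a1 was at 2.66, 2.88, 2.50 and 2.81 in controls and 3.13, 2.83, 2.62 and 2.83 in mutants, a difference of 0.14 (limma SE 0.13, adjusted p = 0.822). Col5a2 was at 0.39, 0.69, -0.03 and 0.46 in controls and 0.18, 0.42, 0.44 and 0.60 in mutants, a difference of 0.03 (limma SE 0.16, adjusted p = 0.963). Control replicate 3 was lowest for both, but mutant replicate 1 was highest for Col5a1 and lowest of the mutants for Col5a2. The type XI chains, best known from cartilage, differed in opposite directions in mean. Col11a1 was at -3.83, -3.51, -4.24 and -3.54 in controls and -4.36, -3.83, -4.40 and -3.54 in mutants, a difference of -0.25 (limma SE 0.24, adjusted p = 0.822). Col11a2 was at -4.19, -4.57, -3.99 and -4.53 in controls and -4.31, -4.20, -3.78 and -4.05 in mutants, a difference of 0.24 (limma SE 0.17, adjusted p = 0.822). The groups overlapped for both. Col5a3, Col24a1 and Col27a1 differed by 0.18, -0.05 and -0.05, and Col2a1, the type II chain of cartilage, was well above background on 0 arrays and was not tested.

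**Figure D2:**
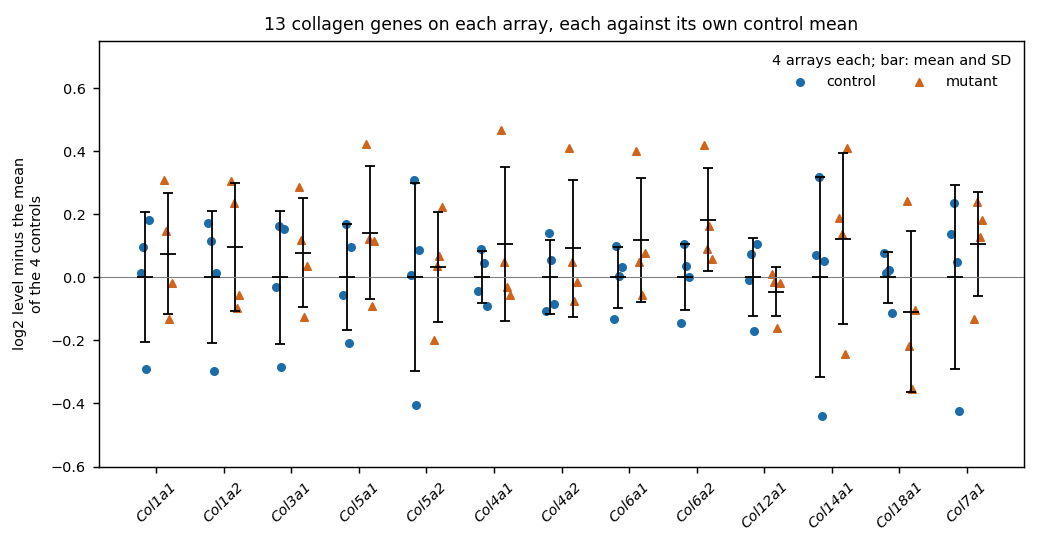
The log2 level of 13 collagen genes (x axis) on each array, minus that gene's own mean over the 4 controls (y axis), with points for the 4 control and 4 mutant arrays and bars for the mean and SD. The groups overlap for each of the 13 genes. The highest point of Col4a1, Col4a2, Col6a1 and Col6a2 is mutant replicate 1.

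Of the 6 type IV chains, 5 were tested, with a median difference of 0.09. Col4a1, whose probe was spotted 10 times per array, was at 3.88, 4.01, 3.96 and 3.83 in controls and 4.38, 3.97, 3.89 and 3.86 in mutants (chr8:11199009-11199068, mm9), a difference of 0.11 (limma SE 0.13, adjusted p = 0.840). Col4a2 was at 3.27, 3.51, 3.43 and 3.29 in controls and 3.78, 3.42, 3.30 and 3.36 in mutants (chr8:11448840-11448899), a difference of 0.09 (limma SE 0.13, adjusted p = 0.855). Mutant replicate 1 was above every other array for both, and without it the differences were -0.013 and -0.014. Col4a5, a chain of a type IV trimer found in smooth muscle and other basement membranes, was at 0.16, 0.05, 0.09 and 0.07 in controls and 0.04, -0.02, -0.09 and 0.03 in mutants (chrX:138123547-138123606). All 4 mutants lay below all 4 controls, by a narrow margin, and the difference was -0.10 (limma SE 0.08, adjusted p = 0.822), which did not pass the test. Its partner Col4a6 differed by 0.03, and by 0.25 on a second probe that was also well above background on all 8 arrays. Col4a4 was at -3.87, -4.15, -3.83 and -4.15 in controls and -3.89, -3.61, -3.81 and -3.88 in mutants, a difference of 0.20 (limma SE 0.12, adjusted p = 0.822). Of its other probes, both below background on most arrays, the differences were -0.12 and -0.11. Col4a3 was well above background on 2 arrays and was not tested.

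Type VI collagen is a trimer of Col6a1, Col6a2 and a further chain, and Col6a3 is not analysed here. Col6a1 was at 5.05, 5.29, 5.19 and 5.22 in controls and 5.59, 5.24, 5.13 and 5.27 in mutants (chr10:76171538-76171597, mm9), a difference of 0.12 (limma SE 0.12, adjusted p = 0.823). Col6a2 was at 3.39, 3.64, 3.57 and 3.54 in controls and 3.95, 3.62, 3.70 and 3.59 in mutants (chr10:76058931-76058990), a difference of 0.18 (limma SE 0.11, adjusted p = 0.822). Mutant replicate 1 was highest and control replicate 1 lowest for both, with the groups overlapping. Col6a4 differed by 0.05. The array also lists Gm7455 and Emid2, the older names of Col6a5 and Col26a1, which the name rule leaves out. They differed by 0.15 and 0.27, with an adjusted p of 0.822 for each in limma.

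Col7a1 forms the anchoring fibrils that fasten basement membrane to stroma. It was at 2.17, 2.26, 2.08 and 1.61 in controls and 1.90, 2.27, 2.16 and 2.21 in mutants (chr9:108886861-108886920, mm9), a difference of 0.10 (limma SE 0.16, adjusted p = 0.867). Control replicate 4 was its lowest array, and without it the difference was -0.037. Type VIII chains form hexagonal lattices. Col8a1 was at -1.96, -2.04, -2.95 and -2.27 in controls and -2.91, -2.43, -2.15 and -2.31 in mutants, a difference of -0.15 (limma SE 0.24, adjusted p = 0.879), and Col8a2 differed by 0.15. Control replicate 3 was the lowest array for each of these type VIII chains.

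The FACIT collagens lie on the surface of fibrils, and 8 of 9 were tested, with 5 higher in mean and a median of 0.07. Col12a1 was at 0.31, 0.40, 0.15 and 0.43 in controls and 0.33, 0.31, 0.16 and 0.30 in mutants, a difference of -0.05 (limma SE 0.10, adjusted p = 0.908). Col14a1 was at 2.68, 2.93, 2.17 and 2.66 in controls and 2.80, 2.75, 2.37 and 3.02 in mutants, a difference of 0.12 (limma SE 0.19, adjusted p = 0.869), with control replicate 3 the lowest array. Its second probe differed by 0.21. Col16a1, which lies on fibrils of several tissues, and the type IX chain Col9a2 differed by 0.02 and 0.16. Col9a1, a type IX chain of cartilage, had the largest difference of the 34 tested collagens. It was at -4.62, -2.39, -4.49 and -4.89 in controls and -4.98, -4.92, -4.52 and -4.97 in mutants, a difference of -0.75 (limma SE 0.49, adjusted p = 0.822). Control replicate 2 alone lay more than 2 log2 units above the other controls, and without it the difference was -0.18, while a second probe of the gene differed by -0.35.

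Another 3 FACIT collagens were among the 5 largest differences in either direction. Col20a1 was at -1.64, -2.43, -2.54 and -1.63 in controls and -2.06, -2.29, -2.16 and -3.01 in mutants, a difference of -0.32 (limma SE 0.28, adjusted p = 0.822). Its second probe differed by -0.15. Col22a1, known from tissue junctions such as that of muscle and tendon, was at -1.07, -0.47, -0.99 and -1.01 in controls and -0.48, -0.91, -1.03 and -0.36 in mutants, a difference of 0.19 (limma SE 0.19, adjusted p = 0.823). The high arrays of Col22a1 were control replicate 2 and mutant replicates 1 and 4. Col19a1 was well above background on 4 arrays, 2 per group, so its difference of 0.29 (limma SE 0.62, adjusted p = 0.911) rests partly on values near background. Its values were -5.37, -6.88, -4.45 and -6.13 in controls and -6.19, -5.63, -3.90 and -5.96 in mutants, and they overlapped throughout.

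Col15a1 and Col18a1 are multiplexins, basement membrane collagens whose ends release antiangiogenic fragments. Col15a1, measured by the helix probe printed above, was at -3.73, -4.27, -3.92 and -4.29 in controls and -3.73, -3.99, -4.35 and -3.78 in mutants, a difference of 0.09 (limma SE 0.18, adjusted p = 0.904). Its other probes differed by 0.31 and 0.38. Col18a1 was at 3.58, 3.52, 3.53 and 3.39 in controls and 3.75, 3.29, 3.15 and 3.40 in mutants (chr10:76514926-76514985, mm9), a difference of -0.11 (limma SE 0.13, adjusted p = 0.840), and a second probe differed by -0.0042. Mutant replicate 1 was the highest array for the probe used.

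Membrane collagens span the cell membrane once. Col25a1, known from neurons, had the lowest unadjusted p of the 34 tested collagens, 0.0718 in limma. It was at -2.65, -2.40, -3.06 and -2.60 in controls and -3.69, -2.88, -2.77 and -3.18 in mutants, a difference of -0.45 (limma SE 0.22, adjusted p = 0.822). The groups overlapped, and the helix probe of this gene, above background on 3 arrays, differed by -0.32. Col13a1 was at -2.33, -2.77, -2.54 and -2.79 in controls and -2.15, -2.46, -2.30 and -2.66 in mutants, a difference of 0.21 (limma SE 0.15, adjusted p = 0.822), and Col23a1 differed by 0.03. Col17a1, a chain of epithelial hemidesmosomes, was well above background on 1 array. Its measured values were -5.63, -5.57, -5.42 and -5.57 in controls and -5.77, -6.38, -6.27 and -6.11 in mutants, which do not overlap, but near background they carry no fold. With no filter on dim probes limma gave Col17a1 a difference of -0.59 with an unadjusted p of 0.00378 and an adjusted p of 0.883, and Col2a1 one of -0.85 with an unadjusted p of 0.0508 and an adjusted p of 0.937, both over values mostly below background. Col9a3 and Col10a1 were well above background on 0 arrays, Col6a6 on 2 and Col28a1 on 3.

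The arrays that were high or low were often the same from gene to gene. Mutant replicate 1 was the highest array for 44.1% of collagens and 45.6% of all genes. Among the 13 collagens with a mean level above 2, a threshold chosen after their values were seen, it was highest for 10, against 69.7% of all genes above that level. Control replicate 3 was lowest for 13 of 34 collagens (38.2%), against 11.8% of all genes, and highest for 0. The median deviation of the collagens from their 8-array means was -0.15 on control replicate 3 and 0.19 on mutant replicate 1. Over all genes tested it was -0.0055 and 0.16, so on mutant replicate 1 the collagens lay near the shift of the whole array. Markers of wall cells, of which 0 were called between the groups, are given beside them. On control replicate 3 the median deviation was -0.52 for smooth muscle markers, -0.72 for mesothelium, -0.17 for fibroblasts and -0.15 for enteric glia and neurons. There it was -0.015 for endothelium and 0.01 for epithelium. On mutant replicate 1 it was 0.39 for smooth muscle, 0.34 for mesothelium, 0.13 for fibroblasts and 0.24 for enteric glia and neurons. It was 0.21 for endothelium and 0.21 for epithelium. The summed level of the 7 smooth muscle markers, in multiples of the array's 75th percentile, ran from 245 to 370 in controls and 342 to 465 in mutants. That of the 8 fibroblast markers ran from 76.9 to 97.2 and from 82.9 to 90.7. Of these 8, Dcn and Lum were lowest on mutant replicate 1, while Pdgfra, Thy1 and Vim were highest on it. The part of tissue makeup in the collagen values was not tested.

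**Figure D3:**
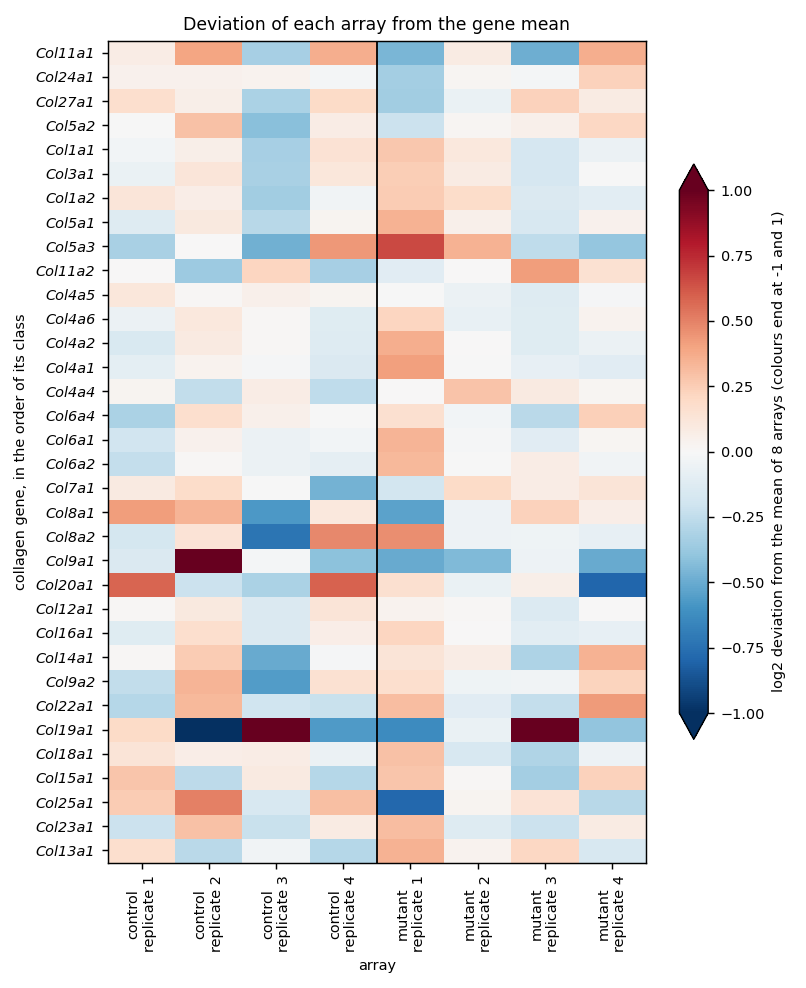
The log2 deviation of each array (columns, 4 controls left of the line and 4 mutants right of it) from the mean of 8 arrays, for the 34 tested collagen genes (rows, ordered by class), with colours ending at -1 and 1. The column of control replicate 3 is mostly blue and that of mutant replicate 1 mostly red, with median deviations of -0.15 and 0.19. Over all genes tested the medians on these arrays were -0.0055 and 0.16.

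Chains that assemble together, or into the same fibrils, were compared within arrays. The SD over 8 arrays of the log2 difference between Col1a1 and Col3a1 was 0.041, while the SDs of the genes alone were 0.19 and 0.18. For Col4a1 and Col4a2 it was 0.044, with 0.18 and 0.17 alone. For Col6a1 and Col6a2 it was 0.079, for Col1a1 and Col1a2 0.096 and for Col1a2 and Col3a1 0.11. In each of these pairs the difference varied less over the arrays than either gene alone. This did not hold for the type V chains, with 0.26 for Col5a1 and Col5a2 against 0.19 and 0.23 alone. For Col4a5 and Col4a6 the SD was 0.13, above the 0.07 and 0.12 of the genes alone. The chains of types VIII, IX and XI gave 0.49, 0.83 and 0.58. The pairs were chosen after the values were seen, the genes share arrays and scaling, and no test was made.

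**Figure D4:**
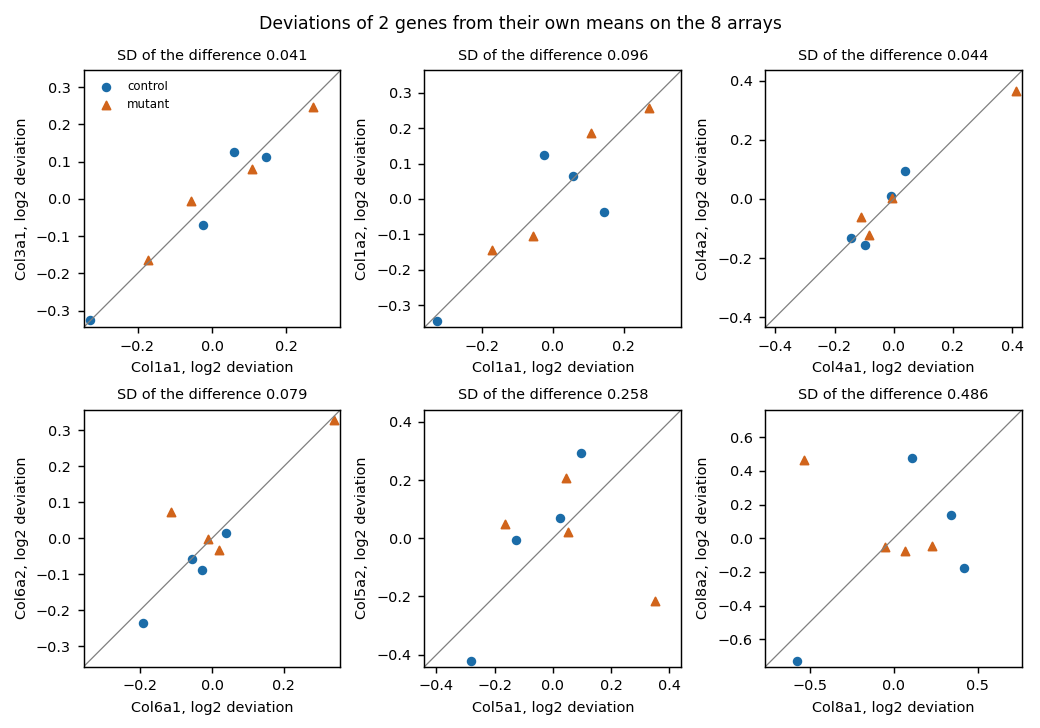
Each panel plots the log2 deviation of one collagen gene from its own 8-array mean (x axis) against that of another (y axis), with 1 point per array, the line of equal deviation, and the SD of their difference as the title. Points of Col1a1 with Col3a1 and of Col4a1 with Col4a2 lie close to the line (SD 0.041 and 0.044), and those of Col8a1 with Col8a2 are scattered (SD 0.486).

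Genes that make, cross-link, bind and degrade collagen were taken from lists of 70 genes, of which 67 were tested. In limma 0 of 67 had an adjusted p under 0.05, against 0.0592% of all genes, and 1 had an unadjusted p under 0.05, against 5.32%. The mean was higher in mutants for 39 and lower for 28, with a median difference of 0.03, the same as over all genes to 2 decimals. Of 18 genes of modification and folding 9 were higher and 9 lower. Of 11 genes of procollagen processing and cross-linking 9 were higher, of 9 receptors 7 were lower, of 8 proteases and inhibitors 5 were higher, of 11 fibril-shaping matrix genes 7 were higher, and of 10 basement membrane partners 7 were higher.

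P4ha1, the catalytic subunit of a prolyl 4-hydroxylase, the enzyme that stabilises the collagen helix, had the largest difference among the 67 tested genes of these lists. It was at -1.004, -0.96, -1.04 and -0.93 in controls and -1.34, -1.50, -1.50 and -1.39 in mutants (chr10:58835625-58835684, mm9), so that all mutants lay below all controls. The difference was -0.45 (limma SE 0.08, adjusted p = 0.247). It was called only when arrays were weighted by their quality in limma, at -0.51 with an adjusted p of 0.0170, and over the other alternatives the adjusted p ran from 0.112 to 0.938. Plod2, a lysyl hydroxylase, was at -0.44, 0.12, -0.76 and -0.02 in controls and -1.05, -0.67, -0.73 and -0.36 in mutants, overlapping, a difference of -0.43 (limma SE 0.22, adjusted p = 0.822). Adamts14, which trims the amino end of procollagen, was at -0.12, -0.09, -0.22 and -0.13 in controls and 0.03, 0.01, -0.03 and -0.04 in mutants, without overlap, a difference of 0.13 (limma SE 0.08, adjusted p = 0.822). These were 2 of 67 genes whose groups did not overlap, against 4.66% of all genes.

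Other large differences in the lists did not pass the test, with an adjusted p of at least 0.822 in limma. Loxl2, a cross-linking lysyl oxidase, differed by 0.23, and Pcolce2, an enhancer of procollagen cleavage, by 0.21. Among receptors, the collagen-binding integrin chain Itga11 differed by 0.20 and the inhibitory receptor Lair1 by -0.19. The matricellular protein Postn differed by -0.35, with mutant replicate 1 at 0.96 and the other mutants at 1.99 to 2.19, and the fibril-binding proteoglycan Fmod by 0.20. Timp3, a protease inhibitor, differed by -0.29, and Mmp13, a collagenase, by -0.22. The laminin chains Lama1 and Lama4 differed by -0.18 and 0.10.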

How the data were processed

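Total RNA of small intestine from 8 samples was hybridised to single-colour Agilent arrays (design annotated on mm9). Per the labels' protocols, TRI-reagent was used and labelling started from 100 ng of RNA. Linear spot intensity values were deposited by the authors, read with Feature Extraction 10.10.1.1 per the submitters' processing notes and not normalised between arrays. The processed intensity is background-corrected within the array, per the file headers. The deposited value table, whose processing is not given in the sources used here, served as an alternative.

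From these, log2 processed intensity minus each array's 75th percentile was computed. Control and outlier spots were left out, and spots of a probe were averaged. A probe was tested if well above background on at least 4 of 8 arrays (at least 0.5 of its spots). Groups were compared over 25337 genes by a two-sided moderated test in limma (version 3.58.1, R 4.3.3) with no covariates and Benjamini-Hochberg adjustment at 0.05. The fit was also run on simulated arrays with independent noise for each gene. These held no shift of a whole array, such as that of mutant replicate 1. Nothing says that the samples are separate animals beyond their numbered titles, so p-values measure the spread between samples. The number of arrays limits the precision. For mutant replicates 2, 3 and 4 the description field gives a different Rfx gene than the title, and groups were taken from the source names. Of 63 probe accessions 58 matched RefSeq, all with the same symbol. No exon or UTR annotation was used.

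The collagen genes, pathway lists and marker lists were chosen with earlier results of these data known. Values on every array are given for main chains of each class, for the 5 largest differences in each direction and for genes whose groups do not overlap; from the pathway lists, for called or non-overlapping genes, with the 2 largest differences of a list named. Alternatives were other background corrections (normexp, offset 50), scalings, filters, probe rules, blocks, array weights and leaving out arrays.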

Additional observations from a re-analysis of the deposited data

Results flagged for a closer look

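In 6 of 70 groups of 4 arrays (34 collagens and Rfx6, control and mutant), 1 array lay far from the other 3, where chance alone would give about 3.5. Col9a1 did so in both groups: control replicate 2 at -2.39 against -4.89 to -4.49, and mutant replicate 3 at -4.52 against -4.98 to -4.92. Col22a1 was at -0.47 in control replicate 2 against -1.07 to -0.99. Col8a2 was at -2.31 in mutant replicate 1 against -2.86 to -2.82. Col12a1 was at 0.16 in mutant replicate 3 against 0.30 to 0.33. Rfx6 was at -5.52 in mutant replicate 1 against -3.37 to -3.02.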

How the results depend on the processing

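The count of collagen genes called was 0 under all 20 alternatives, 18 planned and 2 (each slide row alone) added after seeing the data. The median collagen difference ran from -0.0099 (without control replicate 3) to 0.14 (without mutant replicate 3) and was -0.00099 with array weights. An unadjusted p under 0.05 in limma was reached by 0 of 34 collagens in the report, against 1349 of 25337 genes. With arrays centred on their median it was reached by 1 collagen, against 1026 genes, and in the deposited table by 1, against 1632. With array weights 3 of 34 collagens reached it, against 2618 of 25337 genes. With no filter on dim probes 1 of 41 did, against 1417 of 36142. Within the first slide row 2 collagens did, against 879 genes. When leaving out 1 array 0 to 1 did, against 999 to 1856 genes. Of the pathway genes 1 was called with array weights, P4ha1. The sign was the same under all alternatives for 14 collagens and turned for 20, never with an adjusted p under 0.05, and the cause was not tested. With array weights the sign turned for Col16a1 (-0.069), Col1a1 (-0.0060), Col23a1 (-0.15), Col24a1 (0.019), Col3a1 (-0.014), Col4a6 (-0.038), Col6a4 (-0.046), Col8a2 (-0.12), Col9a2 (-0.023) and Fmod (-0.039). Within the second slide row the sign turned for Col16a1 (-0.056), Col1a1 (-0.022), Col24a1 (0.10), Col27a1 (0.22), Col4a1 (-0.020), Col4a2 (-0.030), Col5a3 (-0.30), Col6a1 (-0.0059), Col6a4 (-0.034), Col8a1 (0.38) and Rfx6 (0.19). Within the first slide row the sign turned for Col14a1 (-0.032), Col5a2 (-0.24) and Col7a1 (-0.13). In the deposited table the sign turned for Col16a1 (-0.046) and Col1a1 (-0.030). After quantile normalisation the sign turned for Col16a1 (-0.013). Leaving out each array in turn, it turned at least once for Col14a1 (-0.024 to 0.24), Col16a1 (-0.054 to 0.073), Col19a1 (-0.22 to 0.71), Col1a1 (-0.022 to 0.14), Col1a2 (-0.0030 to 0.16), Col23a1 (-0.069 to 0.13), Col24a1 (-0.14 to 0.052), Col27a1 (-0.16 to 0.057), Col3a1 (-0.017 to 0.15), Col4a1 (-0.013 to 0.16), Col4a2 (-0.014 to 0.15), Col4a6 (-0.038 to 0.074), Col5a2 (-0.10 to 0.13), Col5a3 (-0.0062 to 0.36), Col6a4 (-0.043 to 0.15), Col7a1 (-0.037 to 0.18), Col8a1 (-0.36 to 0.0078), Col8a2 (-0.073 to 0.33), Col9a2 (-0.00039 to 0.30) and Rfx6 (-0.73 to 0.099). Deviations from the group means correlated at -0.09, 0.06, -0.07 and 0.09 between control and mutant replicates of the same number. So few arrays cannot show whether the samples were paired. The replicate block called 0 collagens and 7 genes in all, against 15 without it. Array weights called 43, normexp 27, slide row 1 alone 5 and row 2 alone 6, and leaving out each array 10 to 22. The Rfx6 probe was above background on 7 arrays, so the filter asking for all 8 gives it no value. With 4 arrays per group, small differences could be missed. For Col9a1 and Col19a1 a large one could be too, as their intervals reached down to 0.272-fold and up to 3.24-fold.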

Other observations

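Among pancreatic acinar markers (digestive enzyme genes), Ctrb1, Cpa1 and Cela1 were well above background on all 8 arrays and differed by 1.30, 1.20 and 0.76, with overlapping groups and a limma adjusted p of 0.588, 0.746 and 0.822. Amy2a5 and Cela2a did not overlap between the groups and were higher in the mutants, with a limma adjusted p of 0.150 and 0.114. Cela2a was well above background on 4 mutant and 0 control arrays, so it was tested only through the mutants, and Prss2, above background on 3 mutant and 0 control arrays, was not tested. Neurog3, whose promoter drives Cre in the mutants, was at 0.05, 0.22, 0.14 and 0.18 in controls and 1.03, 0.72, 0.89 and 0.98 in mutants, a difference of 0.76 (SE 0.10, limma adjusted p = 0.0551).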
